A study of Mus musculus with 3 samples.

Results

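The S100 genes described here are S100a8, S100a9, S100a4, S100a6, S100a10 and S100a11, taken by their symbols from the gene list of the deposited count matrix, 6 of 31053 genes. A further 11 S100 genes in the matrix are summarised at the end. The cells were blood leukocytes of C57/BL6J mice, collected after red cell lysis and measured by droplet single-cell RNA sequencing from the 3′ end of transcripts. The labels give 3 groups with 1 library each, a control (Con, 0 h), sleep deprivation for 24 h (SD24h) and for 48 h (SD48h), and each library pooled the leukocytes of 3 mice, whose age is not given in the labels. A further condition of restricted sleep in the series text was not analysed here. Barcodes end in 1, 2 or 3, read here as library 1, 2 and 3, and the labels do not say which group an ending belongs to. Each library's value is therefore given on its own, no library is called the control, no order in time is read, and no test of sleep deprivation was possible.

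S100 proteins are small calcium-binding proteins of the EF-hand family that act as dimers inside cells and, once released, as signals to other cells. S100a8 and S100a9 join as calprotectin, which fills the cytosol of neutrophils, binds zinc and manganese, and is a classical marker of inflammation when it leaves the cell. S100a4 binds non-muscle myosin and is associated with cell motility, S100a6 and S100a11 bind annexins and other membrane-associated proteins, and S100a10, which has lost its calcium binding, forms a tetramer with annexin A2 at the plasma membrane.

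All 6 genes lie on mouse chromosome 3 (GRCm38, GENCODE M21), each protein-coding with 3 exons in its principal transcript. S100a4 (90603771 to 90606045, plus strand) and S100a6 (90612882 to 90624181, plus strand) are 6.84 kb apart, with S100a5 between them. S100a8 (90668978 to 90670035, plus strand) and S100a9 (90692632 to 90695721, minus strand) are 22.6 kb apart and face each other. S100a11 (93520488 to 93526287, plus strand) and S100a10 (93555080 to 93564643, plus strand) are 28.8 kb apart and lie about 2825 kb further along the chromosome.

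The start regions of 4 members are shown because they set side by side a pair of genes whose levels ran together over cell clusters (S100a8 and S100a9) and a neighbouring pair that parted in neutrophils (S100a4 and S100a6). Each is the RefSeq window of 300 bases on GRCm38.p6, from 250 bases before the annotated start to 50 after it, written 5′ to 3′ on the gene's own strand. The windows are chr3:90668821-90669120 (plus) for S100a8, chr3:90695672-90695971 (minus) for S100a9, chr3:90603520-90603819 (plus) for S100a4 and chr3:90612644-90612943 (plus) for S100a6. Capitals mark matches, on either strand, to TTNCNNAA (a core shared by C/EBP sites), GAGGAA (a core of PU.1 sites), TATAAA and TGANTCA (AP-1).
S100a8: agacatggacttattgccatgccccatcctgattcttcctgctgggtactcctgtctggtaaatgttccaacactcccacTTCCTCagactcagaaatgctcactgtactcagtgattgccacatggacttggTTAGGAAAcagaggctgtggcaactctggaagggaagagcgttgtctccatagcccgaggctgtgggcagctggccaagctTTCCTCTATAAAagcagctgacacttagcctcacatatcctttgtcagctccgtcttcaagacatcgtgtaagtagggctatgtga
S100a9: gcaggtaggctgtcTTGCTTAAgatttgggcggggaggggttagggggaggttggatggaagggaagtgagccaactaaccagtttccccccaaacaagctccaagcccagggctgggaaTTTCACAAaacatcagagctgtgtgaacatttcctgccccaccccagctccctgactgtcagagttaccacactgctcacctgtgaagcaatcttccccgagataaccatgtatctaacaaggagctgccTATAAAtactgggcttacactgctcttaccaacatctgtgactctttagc
S100a4: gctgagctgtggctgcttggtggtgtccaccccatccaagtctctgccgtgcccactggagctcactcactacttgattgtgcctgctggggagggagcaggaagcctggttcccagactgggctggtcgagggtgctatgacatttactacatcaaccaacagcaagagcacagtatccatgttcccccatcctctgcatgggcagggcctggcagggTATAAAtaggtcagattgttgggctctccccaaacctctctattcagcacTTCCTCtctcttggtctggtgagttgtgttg
S100a6: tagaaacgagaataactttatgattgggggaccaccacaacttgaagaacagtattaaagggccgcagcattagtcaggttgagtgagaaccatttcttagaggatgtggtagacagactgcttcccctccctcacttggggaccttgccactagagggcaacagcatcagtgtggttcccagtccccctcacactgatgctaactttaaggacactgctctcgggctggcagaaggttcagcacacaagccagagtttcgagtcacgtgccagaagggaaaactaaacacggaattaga

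Matches were found in 4 of the 5 member windows that RefSeq supplied, and no match overlapped another. S100a8 held 1 C/EBP core, 2 PU.1 cores and TATAAA, and S100a9 held 2 C/EBP cores and TATAAA. S100a4 held TATAAA and 1 PU.1 core, S100a6 held no match to the 4 motifs, and S100a11 (not printed) held 1 PU.1 core and 2 AP-1 matches. Of 32851 promoter windows of this length in the table, 40.7% held the C/EBP core, 28.3% the PU.1 core, 13.6% TATAAA and 7.81% the AP-1 motif, so single matches are common. These are letters found in a window, with no binding measured. S100a10 was not in the table.

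The depth was 40807434, 30114546 and 36523283 UMIs in 8815, 6648 and 6741 barcodes of libraries 1, 2 and 3, and after filtering 6864, 5775 and 5578 cells were kept. Cells were clustered without any S100 gene and classes were named from other markers, so the names do not rest on the members. Neutrophil-like cells numbered 542, 3261 and 2001 in the 3 libraries, monocyte-like 404, 417 and 516, B-like 4213, 1403 and 1996, T-like 1219, 522 and 810, and NK-like 296, 82 and 156. Small classes of dendritic-like (24 to 40 cells) and red-cell-like cells (64 to 150) were found too. The dendritic-like class met 4 of 6 usable dendritic markers. Its leading genes included Ctla4 and Ikzf2, listed as markers of regulatory T cells, beside Cd209a. Library 1 stands apart: 524 of its 542 neutrophil-like cells fell in 1 finer cluster that held 22 cells of library 2, and its neutrophil-like cells carried more platelet RNA (8 markers, all detected in each library, at a summed 9001, 2680 and 2436 CPM). Libraries shared 17 to 23 barcodes in pairs. Levels are given as CPM, the UMIs of a gene per 1000000 UMIs summed over the class in that library. The 3′ method counts molecules, so no gene length enters. Whether transcripts of different genes were captured equally was not checked, so comparisons between genes are of UMI counts. Intervals are exact 95% intervals and cover counting error only.

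Every library placed the highest level of a given member, among the 5 main classes, in the same class, for 6 of 6 members with the interval of the ratio to the next class above 1, beside 20.3% of all 13213 genes measured. S100a8, S100a9, S100a6 and S100a11 led in neutrophil-like cells (as did 5.42% of genes), S100a4 in monocyte-like cells (5.68%) and, in NK-like cells, S100a10 (3.39%). No member led in B-like (3.41% of genes) or T-like cells (2.4%). The lead was wide for calprotectin and S100a4 and narrow for S100a10. S100a8 was 21.2 to 48.5 times and S100a9 22.7 to 56.7 times higher in neutrophil-like than in monocyte-like cells, over the 3 libraries. S100a4 was 13.9 to 65.3 times higher in monocyte-like than in NK-like cells, S100a11 4.82 to 10.3 times and S100a6 2.69 to 3.50 times higher in neutrophil-like than in monocyte-like cells, and S100a10 2.00 to 2.46 times higher in NK-like cells than in the next class.

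**Figure D1:**
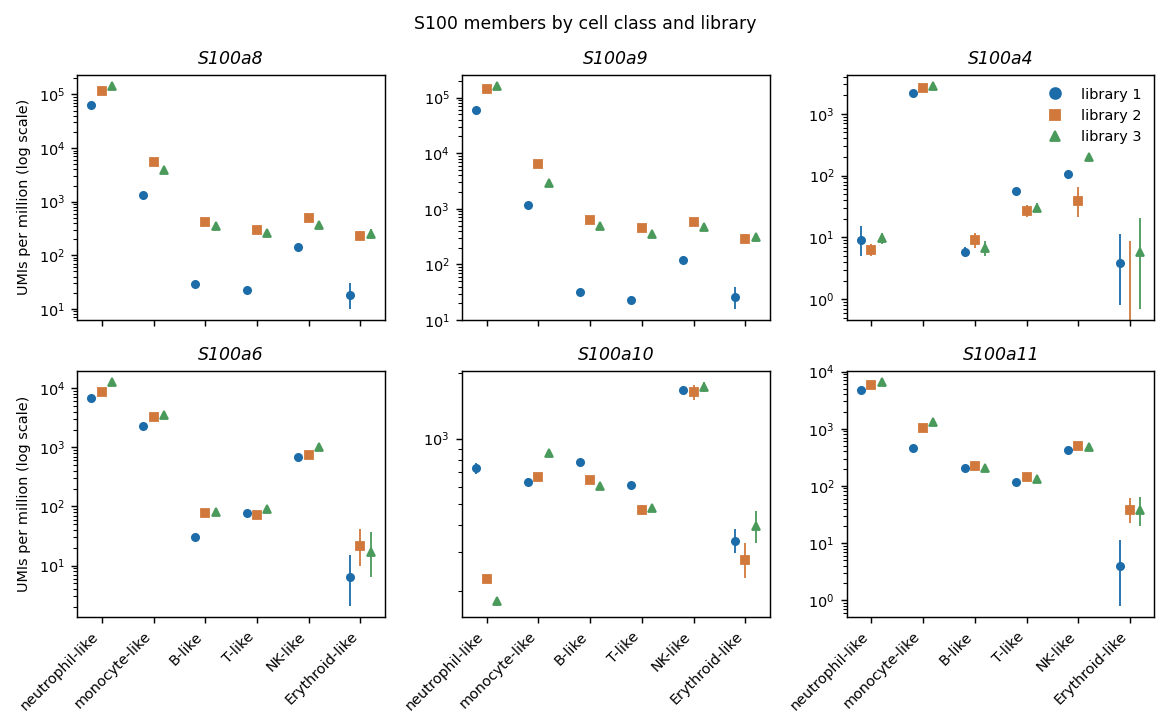
Level of each of the 6 genes (UMIs per 1000000, log axis, scales differ between panels) in 6 cell classes, with 1 symbol per library and exact 95% counting intervals. S100a8 and S100a9 stand highest in neutrophil-like cells, S100a4 in monocyte-like and, among NK-like cells of every library, S100a10, and S100a4 in red-cell-like cells of library 2, with 0 UMIs, has an interval only.

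Calprotectin RNA dominated neutrophil-like cells. S100a8 stood at 63952, 116259 and 145530 CPM in libraries 1, 2 and 3. The level of S100a9 was 60758, 145600 and 163287 CPM. Library 1 was lowest and library 3 highest for both genes. Together the 2 genes took 12.5%, 26.2% and 30.9% of all UMIs of the class. In the median neutrophil-like cell they took 11.5%, 25.1% and 29.7%, and the 5th to 95th percentiles of cells were 1.67 to 22.9%, 6.25 to 38.2% and 10.4 to 40.8%, so the cells of the 3 libraries overlapped. From cell to cell the 2 genes varied together, with a Pearson r of their shares of 0.89, 0.92 and 0.84 over 542, 3261 and 2001 cells that share a library and its depth.

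Within neutrophil-like cells of libraries 2 and 3 calprotectin RNA was highest in the youngest cluster and lower in the mature one. The cluster led by Camp, Stfa2 and Ngp, which encode proteins made before neutrophils leave the marrow, had S100a8 at 167955 CPM in library 2 (85 cells) and 179169 CPM in library 3 (488 cells). The cluster marked by Il1b, Fgl2 and Clec4n, genes of mature neutrophils, had S100a8 at 77772 CPM (1211 cells) and 58637 CPM (136 cells). Its name rests on these genes only, as Cd101, Jaml, Ccl6 and Cxcr2, also on the list for mature neutrophils, did not pass there. The other younger cluster, marked by Ly6g, Prok2 and Mmp8, had S100a8 at 135868 CPM (210 cells) and 138262 CPM (896 cells). Ngp, Camp, Ltf, Lcn2, Stfa2 and Chil3, also on the list for younger neutrophils, did not pass there. Cluster 0, which took no subset name and had Mmp8 among its leading genes, was level with the Ly6g cluster in library 2, at 138036 CPM (1311 cells). It had 127208 CPM in library 3 (132 cells). The mature cluster was not the lowest in library 2. Cluster 21, led by ribosomal genes and without a subset name, had S100a8 at 72285 CPM there (145 cells) and 97297 CPM in library 3 (127 cells). With the 2 younger clusters pooled and set over the mature one, S100a8 was 1.88 times higher in library 2 (95% interval 1.87 to 1.89) and 2.65 times in library 3 (2.62 to 2.69), and S100a9 1.73 and 2.06 times. S100a6 followed them, at 2.00 (1.96 to 2.04) and 2.27 times (2.18 to 2.37). These 3 of the 6 members passed a ratio of 1.5 with an interval above 1 in both libraries, beside 5.9% of 6826 genes in library 2 and 2.51% of 7533 in library 3. S100a11 was 1.15 and 1.48 times higher, and S100a10 took different directions, at 1.19 times in library 2 (1.06 to 1.33) and 0.564 times in library 3 (0.466 to 0.688). Library 1 had too few such cells for the comparison.

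Within clusters the ratio of libraries 2 and 3 took either direction. Over the 6 neutrophil-like clusters that held at least 20 cells of both, the ratio of library 3 to library 2 had a median of 1.01 for S100a8 (0.754 to 1.35) and 0.939 for S100a9 (0.812 to 1.31), against 1.25 and 1.12 for the class as a whole. For S100a6 the median was 1.09 (0.959 to 1.37), against 1.44. The mature cluster and the cluster led by ribosomal genes were further apart than the class for S100a8, at 0.754 and 1.35, and for S100a9, at 0.812 and 1.31. S100a4 had 1 to 44 UMIs per cluster and library and a median of 2.50 within clusters, against 1.53 for the class. In the 1 cluster that libraries 1 and 2 shared, the level was 63136 and 61192 CPM for S100a8, 59923 and 74564 CPM for S100a9, and 6771 and 5523 CPM for S100a6. Gp6 and Mpig6b, which encode platelet receptors, are among its leading genes, and its platelet markers summed to 9093 and 7828 CPM.

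The balance of the 2 subunits differed between libraries and clusters. In neutrophil-like cells the ratio of S100a8 to S100a9 UMIs was 1.05 for library 1 (1.04 to 1.06), 0.798 for library 2 (0.7967 to 0.8003) and 0.891 for library 3 (0.889 to 0.893). Library 1 alone had more S100a8 than S100a9. Within library 3 the ratio ran from 0.705 in the mature cluster to 0.980 in the youngest, and within library 2 from 0.751 in the interferon-signature cluster to 0.852 in the youngest. In the cluster that libraries 1 and 2 shared it was 1.05 (1.04 to 1.06) and 0.821 (0.781 to 0.862), so the 2 libraries differed there too beyond counting error.

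**Figure D2:**
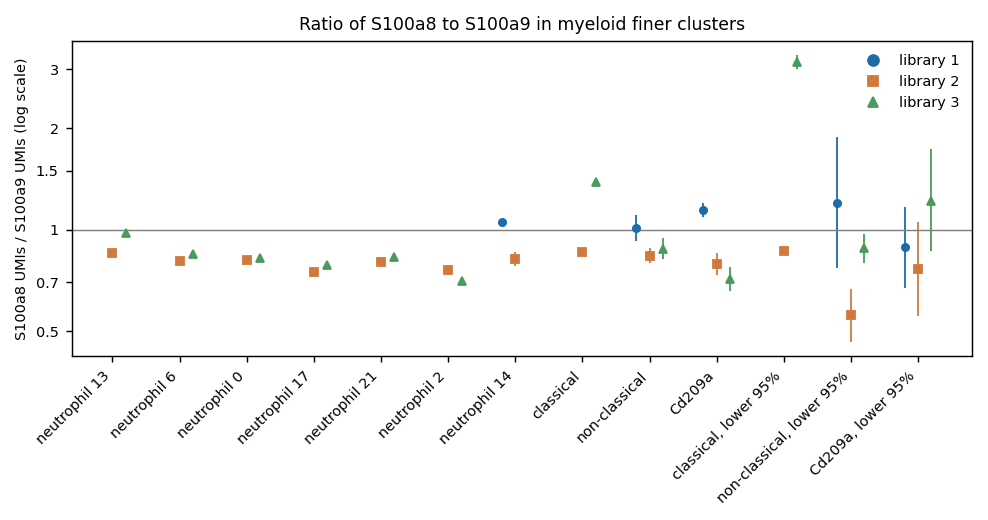
Ratio of S100a8 to S100a9 UMIs (log axis, grey line at 1) in finer clusters of neutrophil-like and then monocyte-like cells, with 1 symbol per library and exact 95% counting intervals. Neutrophil-like clusters are drawn as 13 and 6 (younger), 0, 17 and 21 (no age name), 2 (mature) and 14 (platelet-rich). The last 3 positions leave out the 5% of monocyte-like cells of each library with the largest S100a8 and S100a9 share, where classical monocytes of library 3 stand at 3.15 and those of library 2 at 0.868.

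In monocyte-like cells the calprotectin level rested on few cells. Their level was 1320, 5487 and 3853 CPM for S100a8 and 1183, 6412 and 2881 CPM for S100a9, lowest in library 1 and highest in library 2. The median cell had 0%, 0.0736% and 0.0855% of its UMIs from the 2 genes. In library 1, 96.5% of the S100a8 and S100a9 UMIs lay in the 21 of 404 cells with the largest share, in library 2 61.9% in 21 of 417 and in library 3 70.9% in 26 of 516. Those cells also held 69.4%, 57.3% and 73.9% of the class's UMIs of the neutrophil genes Retnlg, Cxcr2, Mmp9 and Csf3r, and had a median doublet score of 0.155, 0.206 and 0.189, against 0.0460, 0.0395 and 0.0331 in the rest. The part of neutrophil RNA or of mixed droplets in this level was not tested.

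Without those cells the libraries parted. S100a8 in the remaining monocyte-like cells had 46.6, 2247 and 1518 CPM, S100a9 had 48.1, 2619 and 603 CPM, and in libraries 2 and 3 the classical monocytes among them had more than the non-classical ones. Classical monocytes, marked by Ccr2, Ly6c2 and Vcan, had S100a8 at 2617 CPM in library 2 (305 cells) and 2146 CPM in library 3 (231 cells), against 398 and 415 CPM in non-classical monocytes, marked by Ace and Treml4. S100a9 was higher in classical monocytes too, at 3014 against 711 CPM in library 2 and, by less, at 680 against 471 CPM in library 3. In classical monocytes the ratio of S100a8 to S100a9 was thus 3.15 in library 3 (3.01 to 3.30, from 7654 and 2427 UMIs) and 0.868 in library 2 (0.844 to 0.893). The 4 neutrophil genes summed to 171 CPM in these cells of library 3 and 556 CPM in those of library 2. Library 1 had fewer than 20 classical monocytes. With every cell kept, the ratio in classical monocytes was 1.38 (1.35 to 1.41) in library 3 and 0.860 (0.844 to 0.876) in library 2. With every cell kept, S100a8 and S100a9 did not pass 1.5 times between classical and non-classical monocytes of library 2, at 1.16 (1.11 to 1.21) and 1.13 times (1.09 to 1.18), while in library 3 they were 7.72 and 4.91 times higher. The cells left out were chosen by their S100a8 and S100a9 share after the data were seen.

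B-like and T-like cells held S100a8 and S100a9 at a share of the neutrophil-like level close to that of other neutrophil genes. In B-like cells S100a8 stood at 29.6, 416 and 347 CPM, and in T-like cells at 22.0, 293 and 258 CPM. Red-cell-like cells, which should lack the gene, had 18.1, 233 and 246 CPM. Library 1 was lowest in each of these classes. Set against the neutrophil-like level of the same library, S100a8 in B-like cells was 0.0463%, 0.358% and 0.238% and S100a9 0.0530%, 0.430% and 0.299%. Neutrophil marker genes measured the same way had medians of 0.0583%, 0.444% and 0.268% (8, 16 and 17 markers with at least 1000 UMIs).

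The share of cells with an S100a8 UMI followed the same pattern. It was 12.1%, 79.3% and 72.8% of B-like cells, at a median depth of 3944, 3791 and 3598 UMIs, and 8.67%, 87.5% and 68.0% of red-cell-like cells, at 5363, 6808.5 and 4752 UMIs. After thinning each cell to 1000 UMIs the shares were 3.13%, 34.8% and 30.3% in B-like and 2.36%, 26.5% and 25.1% in red-cell-like cells. Thinned shares were higher in B-like than in red-cell-like cells of every library, by little in library 1. They rest on only 141, 64 and 70 red-cell-like cells and carry no interval. Before thinning, the share in library 2 was higher in red-cell-like cells. The source of these UMIs was not tested. In NK-like cells S100a8 stood at 142, 491 and 371 CPM, and a single cell gave 73.6% of these UMIs for library 1.

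**Figure D3:**
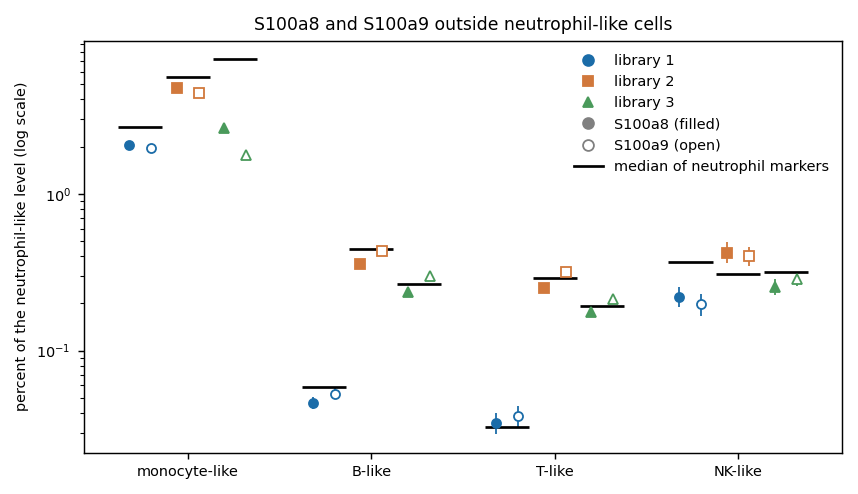
S100a8 (filled) and S100a9 (open) in 4 classes as a percent of their level in neutrophil-like cells of the same library (log axis), with exact 95% counting intervals, and the median of neutrophil marker genes measured the same way (black bars). In B-like and T-like cells both genes stand close to the black bar of their own library, at 0.0344 to 0.430%.

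S100a6 and S100a11, the annexin-binding members, were also highest in neutrophil-like cells but spread over more classes. S100a6 stood at 6807, 8739 and 12541 CPM there, again lowest in library 1 and highest in library 3. Monocyte-like cells followed with 2299, 3252 and 3580 CPM, then NK-like cells with 691, 756 and 995 CPM. B-like cells had 30.4, 77.2 and 81.2 CPM, or 0.447%, 0.883% and 0.647% of the neutrophil-like level, above the share of S100a8 in every library. By thinning, 32.9%, 42.1% and 43.8% of NK-like cells had an S100a6 UMI, against 2.19%, 5.48% and 5.66% of B-like cells.

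S100a11 was the most even of the neutrophil members. In neutrophil-like cells it stood at 4758, 5891 and 6447 CPM, 1.36 times apart between libraries 1 and 3 (1.32 to 1.39). Monocyte-like cells had 460, 1017 and 1337 CPM, and NK-like cells had 419, 497 and 473 CPM. B-like cells, at 202, 224 and 203 CPM, and T-like cells, at 116, 141 and 134 CPM, stood at 2.07 to 4.25% of the neutrophil-like level, while red-cell-like cells had 3 to 16 UMIs in all (3.88 to 38.4 CPM). In B-like and T-like cells S100a11 was thus a larger share of its neutrophil-like level than S100a8 was in each library.

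Of the 5 main classes only monocyte-like cells had S100a4 at a high level. It stood at 2183, 2579 and 2817 CPM there, and 73.0%, 81.3% and 78.4% of these cells had a UMI after thinning. Neutrophil-like cells had 9.01, 6.29 and 9.62 CPM (14, 73 and 108 UMIs), near B-like cells at 5.85, 8.97 and 6.68 CPM. Single cells held 28.6% of these UMIs for neutrophil-like cells of library 1 and 56.9% for B-like cells of library 2. A UMI was found in 0.764%, 0.586% and 0.833% of neutrophil-like and 0.533%, 0.442% and 0.573% of B-like cells after thinning. S100a4 in neutrophil-like cells was thus close to its level in B-like cells. Its neighbour S100a6, 6.84 kb away, was at 6807 CPM and above in the same neutrophil-like cells. The dendritic-like cells (40, 26 and 24), outside the 5 main classes, had S100a4 at 2039, 3736 and 2604 CPM, of the order of the monocyte-like level. This is the level of a mixed class. At the finer clustering 21, 18 and 18 of these cells fell in a monocyte-like cluster marked by Cd209a. The other 19, 8 and 6 fell in a T-like cluster marked by Ccl5. They carried 368, 309 and 129 of the 739, 953 and 688 S100a4 UMIs of the class.

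Within monocytes S100a4 and S100a6 moved together, with a Pearson r of 0.77, 0.68 and 0.79 over 404, 417 and 516 cells. Both were lower in the non-classical cluster. S100a4 stood there at 1319, 1352 and 2062 CPM, against 2718 and 3149 CPM in classical monocytes of libraries 2 and 3 and 2562, 3150 and 2913 CPM in the cluster marked by Cd209a and MHC class II genes. S100a10 and S100a11 were lower there as well. Classical over non-classical monocytes, the ratio was 2.01 and 1.53 for S100a4, 2.29 and 2.34 for S100a6, 2.44 and 3.09 for S100a10 and 2.18 and 3.29 for S100a11 in libraries 2 and 3, and 4 (these, without S100a8 and S100a9) and 6 of the 6 members passed 1.5, beside 6.56% and 9.45% of all genes. The Cd209a cluster was at least 1.5 times above the non-classical one for 6, 4 and 4 members in libraries 1, 2 and 3, beside 9.99%, 9.35% and 8.84% of genes. The 4 in library 2 were S100a4, S100a6, S100a10 and S100a11. Those in library 3 were S100a8, S100a9, S100a10 and S100a11, and S100a4 and S100a6 were 1.41 and 1.43 times higher there. In the dendritic-like class of library 3, the top cell of each gene held 93.6% of S100a8 and 93.0% of S100a9 UMIs. The 28 monocyte-like cells of the cluster there had S100a8 at 512 and S100a9 at 419 CPM. Non-classical monocytes of library 3 had 712 and 810 CPM, or 415 and 471 CPM without the cells of largest S100a8 and S100a9 share. Without such cells, the monocyte-like cells of the cluster in library 1 had 53.0 and 59.7 CPM, against 37.0 and 30.7 in non-classical monocytes. At the coarser clustering 21 of the 215, 18 of the 40 and 18 of the 46 cells of the Cd209a cluster were called dendritic-like, so in libraries 2 and 3 its levels mix both kinds. Because these subsets took different shares of the monocyte-like cells of each library (202, 74 and 233 non-classical cells, and 215, 40 and 46 in the Cd209a cluster), differences between libraries in this class mix both.

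Among T-like cells, S100a4 and S100a6 were high in a cluster marked by Ccl5, Nkg7, Cxcr3 and Cd44, genes of effector or memory T cells. The cluster held 178, 43 and 83 cells, of which 19, 8 and 6 were called dendritic-like at the coarser clustering and carried 368 of 782, 309 of 373 and 129 of 259 S100a4 UMIs. In the 159, 35 and 77 cells called T-like at both, S100a4 stood at 302, 210 and 187 CPM, against 3.77, 8.58 and 7.15 CPM in the other T-like cells. The ratio was 80.1 (53.1 to 126), 24.5 (15.3 to 40.3) and 26.2 (17.8 to 39.6). Few cells carried it: 41, 5 and 19 had an S100a4 UMI, and in library 2 a single cell held 48.4% of them. S100a6 stood at 405, 519 and 518 CPM against 7.39, 27.4 and 29.2 CPM, with a UMI in 50.9%, 48.6% and 48.1% of the cells.

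S100a10 and S100a11 were higher in the same T-like cells by less. S100a10 was 1.49 (1.39 to 1.59), 1.67 (1.44 to 1.92) and 2.01 times higher (1.83 to 2.21), and S100a11 2.48, 1.89 and 2.13 times. S100a8 was not higher, at 0.726 (0.446 to 1.13), 0.826 (0.644 to 1.05) and 0.981 times (0.833 to 1.15) the level of the other T-like cells. Monocyte markers, some of which effector T cells share, summed to 1560, 1456 and 1283 CPM in these cells and 539, 428 and 504 CPM in the others, with 5, 6 and 6 of the 14 markers at 0. NK markers, also shared in part with effector T cells, summed to 1992, 1660 and 1862 CPM against 403, 435 and 549 CPM, with 1, 3 and 1 of 12 at 0. The part of either cell type was not tested. With the dendritic-like cells kept, 6, 4 and 4 of the 6 members passed 1.5, beside 7.92%, 5.71% and 5.2% of all genes, and S100a4 was 140, 121 and 49.9 times higher.

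**Figure D4:**
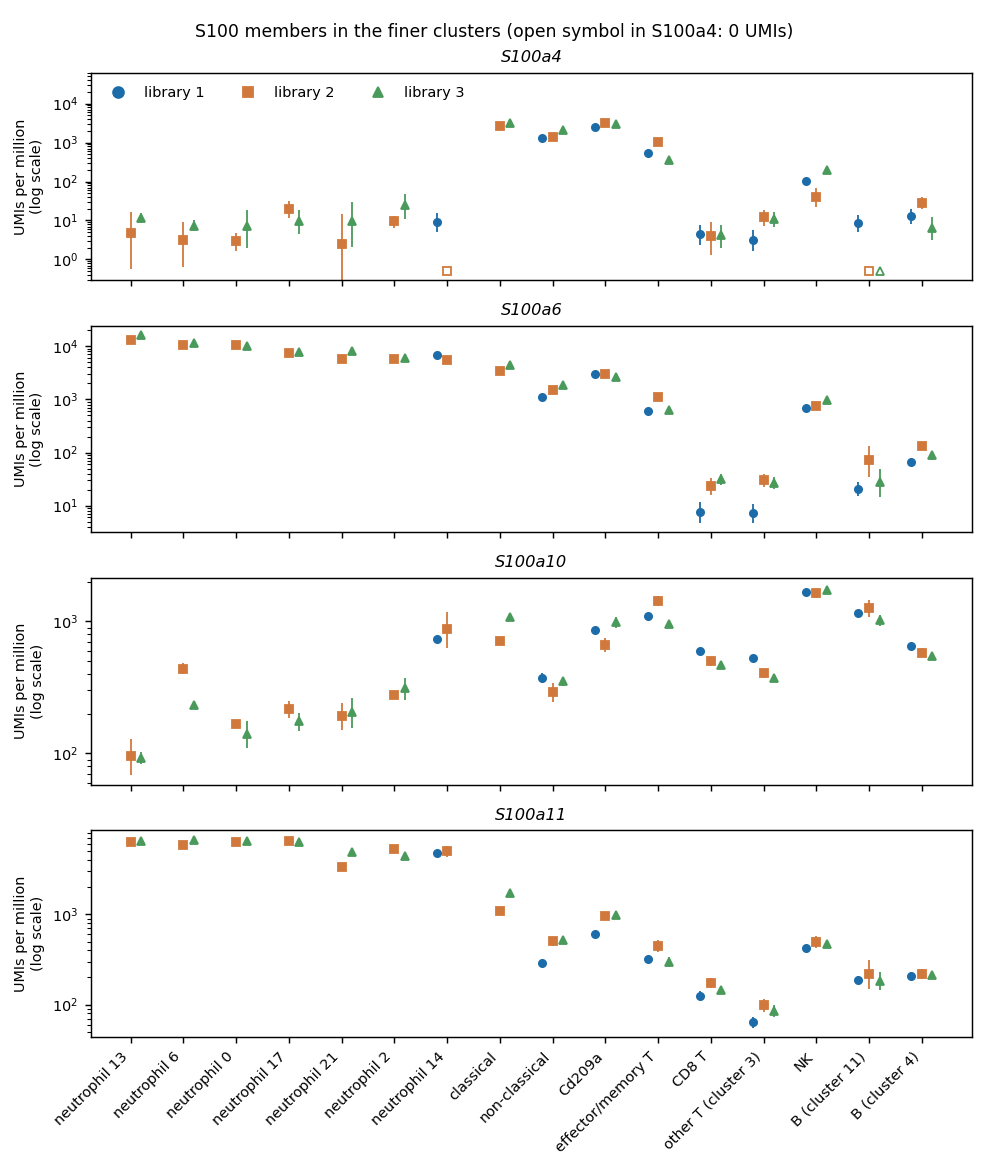
Levels of S100a4, S100a6, S100a10 and S100a11 (UMIs per 1000000, log axes that differ between panels) in finer clusters named on the x axis, with 1 symbol per library, exact 95% counting intervals, and open symbols for 0 UMIs. The effector or memory T cluster is drawn with its dendritic-like cells, with S100a4 at 357 to 1034 against 3.23 to 11.95 in the other 2 T clusters shown, and S100a10 is lowest, at 93.0 to 95.4, in the youngest neutrophil cluster.

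Of the 5 main classes NK-like cells had the most S100a10. It stood at 1667, 1632 and 1718 CPM there, 1.05 times apart over the 3 libraries (0.955 to 1.16). The few dendritic-like cells, the mixed class described above, had 2309, 1619 and 980 CPM. B-like cells had 777, 645 and 604 CPM, T-like cells 610, 470 and 479 CPM and monocyte-like cells 632, 663 and 860 CPM, and the order of these 3 classes changed with the library. S100a10 made up 72.1%, 32.3% and 34.9% of the UMIs of the 6 members in B-like cells, against 0.534%, 0.0822% and 0.0545% in neutrophil-like cells. In NK-like cells 79.9%, 78.7% and 79.0% of cells had a UMI after thinning.

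In neutrophil-like cells S100a10 ran opposite to S100a8, S100a9, S100a6 and S100a11. It stood at 732, 227 and 179 CPM, 4.10 times higher in library 1 than in library 3 (3.81 to 4.41). Platelet RNA moved with it, at a summed 9001, 2680 and 2436 CPM. Sorted by the share of a cell's UMIs that came from the 8 platelet markers, neutrophil-like cells of library 2 had S100a10 at 115, 263, 515 and 862 CPM for up to 0.2%, 0.2 to 0.5%, 0.5 to 1% and over 1%. Library 3 gave 87.2, 225, 438 and 1094 CPM over the same steps, and library 1 gave 434, 632 and 1030 CPM over the last 3 (15 cells fell in the first).

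At a like platelet share the libraries were closer. From 0.5 to 1%, S100a10 was 632 CPM in library 1 (575 to 694; 250 cells), 515 in library 2 (476 to 556; 409 cells) and 438 in library 3 (398 to 481; 219 cells). Over 1%, the intervals of libraries 1 and 3 overlapped (947 to 1118 and 969 to 1232), as did those of libraries 1 and 2, where library 2 had 862 (761 to 973). From 0.2 to 0.5% library 1 was still higher, at 434 (355 to 524), against 263 (247 to 279) and 225 (208 to 242). S100a8 went the other way with the platelet share, from 124866 to 73431 CPM in library 2 and from 155790 to 84774 CPM in library 3, but library 1 stayed lowest at each step it held, at 71850, 65065 and 57058 CPM.

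B-like cells showed the same relation. Of 10 finer clusters with at least 20 cells, cluster 11 had the most platelet RNA (9980, 9156 and 9933 CPM) and the most S100a10 (1155, 1254 and 1018 CPM). Cluster 1, led by the platelet genes Treml1 and Itga2b, followed in platelet RNA at 5281, 4210 and 4883 CPM and had S100a10 at 831, 817 and 750 CPM. The other 8 clusters had platelet markers at 655 to 3135 CPM and S100a10 at 432 to 923 CPM. B-like cells with a platelet share of up to 0.2% still had 632, 605 and 540 CPM of S100a10. How much of S100a10 came from platelets was not tested.

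**Figure D5:**
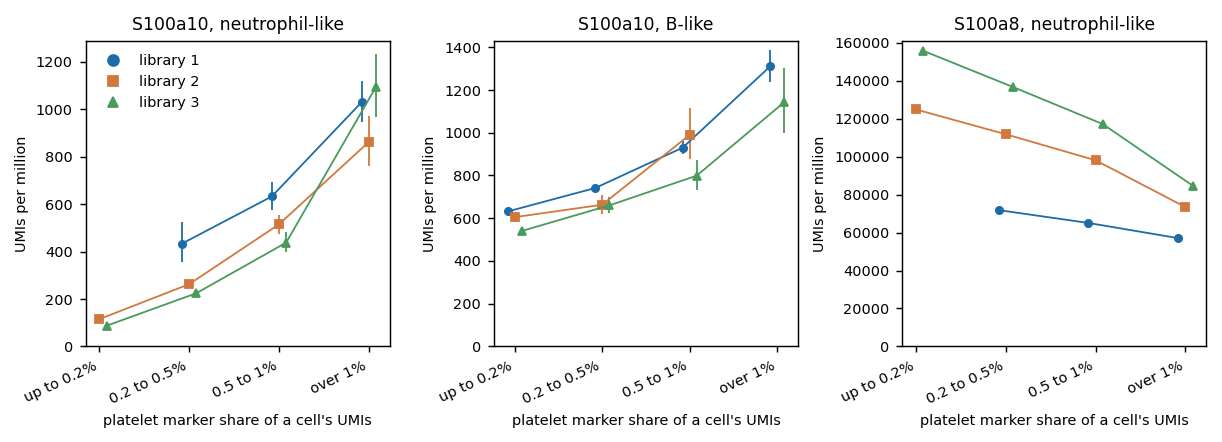
S100a10 in neutrophil-like cells (left) and B-like cells (middle) and S100a8 in neutrophil-like cells (right), in UMIs per 1000000 on a linear axis from 0, by the share of a cell's UMIs from 8 platelet markers, with 1 line per library, exact 95% counting intervals, and no point where fewer than 20 cells fell in a step. S100a10 in neutrophil-like cells of library 2 goes from 115 to 862, and S100a8 goes down.

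The count of members that were at least 1.5 times apart between the highest and lowest library, with an interval above 1, is read against all genes. It was 5 of 6 in neutrophil-like cells, where 60.7% of 9351 measured genes were, and the median log2 ratio was 1.03 for the members and 1.01 for all genes. In monocyte-like cells it was 4 of 6, beside 26.7% of genes, with medians of 1.09 and 0.45. In B-like cells it was 4 of 6 (10.5%), in T-like cells 3 of 6 (13.2%) and in NK-like cells 3 of 6 (12.4%), and S100a8 and S100a9 were among them in each. In B-like and T-like cells these 2 genes stood close to the share of other neutrophil genes, as described above. S100a4 was among them in B-like cells at 1.53 times (1.08 to 2.16). Its highest library there was library 2, where 1 cell held 56.9% of 51 UMIs. Library 1 decided most of these calls. Without it the counts were 1 (S100a4), 1 (S100a9), 0, 0 and 1 (S100a4) in neutrophil-, monocyte-, B-, T- and NK-like cells, and without library 3 the count in neutrophil-like cells was 3. With TMM scaling the count in neutrophil-like cells was 6 of 6. It moved log2 values in neutrophil-like cells by -0.43, 0.12 and 0.31 in libraries 1, 2 and 3, with S100a8 at 47471, 126431 and 180282 and S100a10 still opposite at 543, 247 and 221 per 1000000 scaled UMIs.

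Partner genes from fixed lists were divided between the same classes. Of 12 annexins and intracellular partners, 5 had their highest level in neutrophil-like, 3 in monocyte-like and 1 in NK-like cells in every library, and 3 in no fixed class. Anxa1, which S100a11 binds, reached 567, 1517 and 2021 CPM among neutrophil-like cells, in the order of S100a6 and S100a8. Anxa2, the partner of S100a10, reached 1148, 1500 and 1240 CPM among neutrophil-like cells. NK-like cells had 645, 723 and 736 CPM of it, and B-like cells 7.97, 14.4 and 9.71 CPM, where S100a10 was 604 to 777 CPM. Myh9, the non-muscle myosin heavy chain that S100a4 binds, was highest in neutrophil-like cells, at 631, 403 and 365 CPM. In that class S100a4 was near its level in B-like cells.

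Of 7 receptors of released S100 proteins, 2 led in neutrophil-like cells, 1 each in monocyte-like and B-like cells, and 3 in no fixed class. Cd33, a sialic acid-binding receptor, reached 522, 926 and 658 CPM among neutrophil-like cells and 40.1, 93.6 and 70.9 CPM in monocyte-like cells. Tlr4, the endotoxin receptor, had only 23.8, 52.7 and 28.5 CPM in neutrophil-like cells. Ager, the receptor for advanced glycation end products, had at most 14.2 CPM in any of the 5 classes. Of 6 transcription factors, 4 led in neutrophil-like and 2 in monocyte-like cells. Spi1, which encodes PU.1, stood at 916, 1281 and 1097 CPM and Cebpd at 1058, 1032 and 673 CPM in neutrophil-like cells, and Cebpb at 348, 1066 and 1005 CPM there and 1221, 1384 and 1382 CPM in monocyte-like cells.

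The genes most alike in pattern were sought over 67 points, each a finer cluster in 1 library with at least 30 cells, by Pearson r of log2(CPM + 1) among 3301 genes. The points share libraries and cell types, so r is a description. S100a8 and S100a9 were each other's nearest (r = 0.998), followed for both by Retnlg, Lcn2, Ifitm1 and Lrg1, of which Lcn2 is an iron-withholding granule protein. S100a6 was nearest to Anxa1 (0.957) and Anxa2 (0.948). S100a4 was nearest to the chemokine receptors Cx3cr1 (0.909) and Ccr2 (0.895), S100a11 to Txn1 (0.964) and Atp6v1g1 (0.955), and S100a10 to Fundc2 (0.869) and Ptpn18 (0.856). Among the members, S100a6 and S100a11 had r = 0.91, S100a4 and S100a8 0.13, and S100a10 and S100a8 -0.64.

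Of the 11 other S100 genes, 2 were measured well. S100a13 had its highest level in NK-like cells of all 3 libraries, at 376, 373 and 380 CPM, as S100a10 did. S100a1 had no fixed class and reached 185, 60.3 and 43.6 CPM among neutrophil-like cells, highest in library 1 like S100a10. S100a3 had 1, 23 and 3 UMIs in neutrophil-like cells and S100a7a 0, 43 and 25. The others did not reach 20 UMIs in any class of a library.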

How the data were processed

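Single-cell RNA was measured in 3 droplet libraries (Chromium 3′ v3 per the labels' protocols). The authors deposited 1 matrix of raw UMI counts, whose header carries Cell Ranger 6.0.2. Cell Ranger 4.0.0 stands in the submitters' processing notes, beside Trimmomatic 0.39, Seurat 3.0, R 4.0.2 and GRCm38, and the sources used here do not settle which version set the counts or how cells were called. A 3′ count does not tell apart transcripts that share an end.

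A barcode was kept if it had 200 genes or more and no more than 10% mitochondrial UMIs. Doublets were scored with Scrublet (scanpy 1.11.5, expected rate 6%). The automatic threshold marked 0.0983%, 2.14% and 3.84% of cells in libraries 1, 2 and 3, so 1 threshold of 0.25, chosen after the data were seen, was used and removed 3.62%, 3.40% and 3.58%. Cells were scaled to 10000 UMIs and clustered (2000 variable genes, 30 principal components, 15 neighbours, Leiden with leidenalg 0.10.2 at resolution 1, finer at 2) without the 17 S100 genes and without haemoglobin, mitochondrial, antigen receptor, Xist and Y genes. A name needed 3 markers. Counts were summed per class and library. A gene was measured at 20 UMIs, a ratio called at 1.5 with an exact 95% interval above 1, and a count of 0 set to a floor of 3 UMIs. The intervals and call rule were tested on simulated counts drawn with counting error only. Those counts hold no spread between cells, so the simulation cannot tell how the rule behaves with it. No p-value is given, as each group has 1 library and the libraries carry no group label.

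Alternatives were a stricter filter, doublets kept, resolution 2 for classes, S100 genes in the clustering, totals without S100a8 and S100a9, TMM scaling (edgeR 4.0.16), thinning and other points for likeness. Leaving out each library and restricting cells by platelet share or to those of 1 class at both resolutions were added after the data were seen. The members and lists were chosen with earlier results of these data known. All 6 members are named, other S100 genes by count, partner genes from fixed lists, and the 5 most alike genes per member by r.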

Additional observations from a re-analysis of the deposited data

Results flagged for a closer look

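Barcodes left out by the filters (1951, 873 and 1163 in libraries 1, 2 and 3) held S100a8 and S100a9, a signal outside the cells described above. Their level of S100a8 was 1849, 20398 and 23654 CPM, that of S100a9 was 1760, 25338 and 26514 CPM, against a floor of 3 UMIs at 0.448, 0.756 and 0.660 CPM. They carried 10.5%, 5.55% and 6.07% of all S100a8 UMIs of their library. The left-out barcodes mix low-quality cells and called doublets, and their cell types were not determined.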

How the results depend on the processing

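The 6 members kept the leading classes named above under every alternative run for that count. The counts of members at least 1.5 times apart moved by over 1.5 times only under the settings named here. With cells of 500 genes or more and no more than 5% mitochondrial UMIs the count was 6 of 6 in T-like cells, of which 197, 183 and 287 remained, and 5 of 6 in NK-like cells. With cells of 0.2 to 0.5% platelet share it was 5 in NK-like cells, where library 2 had 16 such cells. Leaving out each library in turn gave 1 to 4 in neutrophil-like, 1 to 4 in monocyte-like, 0 to 4 in B-like, 0 to 3 in T-like and 1 to 3 in NK-like cells, with the lowest value without library 1 in each. Of 210 recomputed log2 ratios between the highest and lowest library, 206 kept their direction. The 4 others were in T-like cells: S100a4 at -0.19 and S100a6 at -0.36 with classes taken at resolution 2, S100a6 at -0.33 under the strict filter and S100a10 at -0.11 in the platelet-matched cells. Their cause was not tested. Of the 5 most alike genes, 2, 4, 1, 2, 0 and 1 were also named over class and library points for S100a8, S100a9, S100a4, S100a6, S100a10 and S100a11. No paired analysis was possible because each group has 1 library and the barcode endings carry no replicate number. Low counts limit S100a4 in neutrophil-like cells (14 UMIs in library 1).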
